A study of Mus musculus with 4 samples.

Results

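The genes described here handle long-chain fatty acids at the point where they enter a cell and are made ready for use. The set holds 10 genes of the 24346 rows in the deposited expression table, matched by gene symbol. They are the acyl-CoA synthetase genes Acsbg1, Acsl1, Acsl3, Acsl4, Acsl5 and Acsl6, the carnitine palmitoyltransferase genes Cpt1a and Cpt2, the fatty acid binding protein gene Fabp5, and Cd36, the gene of a membrane receptor that takes up fatty acids and lipoproteins. All 10 were in the table, and 9 passed the filter on low values, which asked for 1 FPKM or more in 2 or more of the 4 libraries (FPKM counts fragments per kilobase of a gene's transcript and corrects for library size). The members were picked with the differences between the groups already known, so their values are given as a description, and nothing is read from how many of them passed a threshold.

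RNA was measured in regulatory T (Treg) cells, the Foxp3-expressing CD4+ T cells that restrain immune responses, sorted from mouse spleen. The mutant mice, called dKO, were Foxp3-Cre+ with both Tcf1 and Lef1 double floxed and are labelled Tcf1-/-Lef1-/-, while the WT mice were also Foxp3-Cre+ and had wild-type Tcf1 and Lef1. Mice of both groups were male and 16 weeks of age, and all cells were CD4+, Thy1.2+ and Foxp3-Cre-GFP+. Cre was driven by Foxp3, so deletion was directed to Foxp3-expressing cells. There were 2 dKO and 2 WT libraries, called dKO_0, dKO_1, WT_0 and WT_1 after their columns, and nothing in the labels says that they came from separate animals.

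A fatty acid must be joined to coenzyme A before a cell can burn it, store it or build it into membranes, and acyl-CoA synthetases carry out this activation. For oxidation in mitochondria, Cpt1a moves the acyl group onto carnitine at the outer membrane and Cpt2 returns it to coenzyme A inside. Cd36 helps fatty acids across the plasma membrane, and Fabp5 carries them in the cytosol. In T cells these steps are known for their part in the choice between fuel use and growth, and Treg cells are known to rely on fatty acid oxidation more than effector T cells do.

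The libraries were estimated from the low FPKM values to hold 23.7 and 25.4 Mreads in dKO_0 and dKO_1, against 19.4 and 23.4 Mreads in WT_0 and WT_1 (Mreads, megareads). Tcf7, the gene of Tcf1, had 247 and 249.6 FPKM in dKO libraries, against 345 and 309 FPKM in WT libraries, and Lef1 had 41.3 and 36.0 FPKM in dKO libraries, against 59.9 and 66.5 FPKM in WT libraries. These gene-level values sum all exons and do not measure the deletion. Of 9 Treg markers, 8 were in the table and all 8 passed the filter, Foxp3, Il2ra, Ctla4 and Ikzf2 among them. They summed to 2126 and 2069 FPKM in dKO_0 and dKO_1, and to 1969 and 1920 FPKM in WT_0 and WT_1. Both dKO libraries were above both WT libraries for 6 of them, where 27.8% of all rows tested were. For the other 2, Ikzf2 and Cd4, both were below, where 23.4% of rows were. Markers of other cell types were also present. The 14 monocyte and macrophage markers summed to 621 and 617 FPKM in dKO_0 and dKO_1, and to 744 and 885 FPKM in WT_0 and WT_1. All 14 had a lower fitted level in dKO. Of these, 9 had an unadjusted p under 0.05 (limma), where 7.08% of all rows tested were lower at that threshold. After adjustment 0 were called, where 0.164% of rows were called lower. The 10 B cell markers summed to 130 and 193 FPKM in dKO libraries and to 134 and 49.1 FPKM in WT libraries. The 8 neutrophil markers summed to 71.2 and 115 FPKM in dKO libraries, and to 353 FPKM in WT_0 and 87.3 FPKM in WT_1. The 28 cell cycle genes summed to 850 and 896 FPKM in dKO libraries, and to 658 and 492 FPKM in WT libraries, and all 28 were lowest in WT_1. After adjustment limma called 0 of them, where 0.181% of rows were called higher. Before it 26 were higher in dKO at a p under 0.05, where 9.64% of rows were. The authors' deposited list of higher genes held 19, where 1.56% of rows with a group mean of at least 1 FPKM were listed. In sorted bulk cells, fewer cells of a type and less RNA per cell cannot be told apart.

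**Figure D1:**
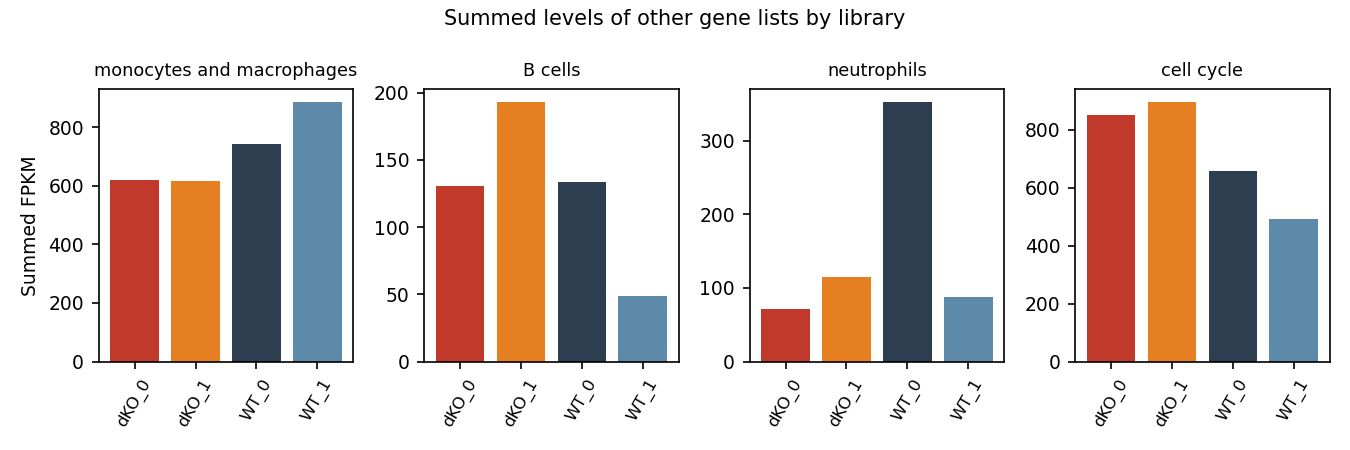
Summed FPKM (vertical axis, from 0) of monocyte and macrophage, B cell, neutrophil and cell cycle genes in each of the 4 libraries, with no error bars since each bar is 1 library. Macrophage markers are lower in both dKO libraries (621 and 617) than in WT_0 (744) and WT_1 (885), neutrophil markers stand out in WT_0 (353), and cell cycle genes are higher in both dKO libraries than in either WT library.

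Among the synthetases, Acsbg1 differed most between the groups. It encodes an acyl-CoA synthetase of the bubblegum family, which activates long-chain and very long-chain fatty acids. Acsbg1 (chr9:54604877-54661870, minus strand, GRCm38) had 37.1 FPKM in dKO_0 and 38.8 in dKO_1, against 21.9 in WT_0 and 23.2 in WT_1. The groups did not overlap, and the libraries within each group lay close together. The means were 37.9 ± 1.23 FPKM in dKO and 22.6 ± 0.886 FPKM in WT (SD, n = 2 each), a ratio of 1.68. On the log2(FPKM + 1) scale the difference was 0.72 (SE 0.0639). It stayed between 0.69 and 0.76 when any single library was left out. Of all 11595 rows tested, 96.4% had a smaller absolute difference. Among the members, only Acsbg1 was in the authors' deposited lists of changed genes, which come from the same libraries. It stood among the higher genes, where 1.56% of rows with a group mean of at least 1 FPKM were listed. No annotated gene overlaps it, and no other annotated transcript came near its coding sequence (identity of at least 90% over at least 50% of its length).

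Tcf1 and Lef1 are known to bind DNA through a core that reads CTTTGA or CTTTGT, so these letters were looked for on both strands in the 250 bases before the annotated starts of the members (RefSeq, GRCm38.p6). The table of starts held 12 entries for 9 of the 10 members, and Fabp5 had none. The core was found in 3 of the 12 entries, of Acsl5, Cd36 and 1 of the 3 starts of Acsl6. These 3 windows lie inside the span of their gene in the GENCODE annotation, as do some windows without the core. They precede a RefSeq start within the gene, not the outermost start. Among all 32851 promoter windows of the same length, 27.6% held it. The upstream windows of Acsbg1, which had the largest difference, and of Acsl5, which had the highest level, are shown in full, with the core in capitals. The Acsbg1 window is chr9:54661886-54662135 on the minus strand and the Acsl5 window is chr19:55253119-55253368 on the plus strand.
Acsbg1: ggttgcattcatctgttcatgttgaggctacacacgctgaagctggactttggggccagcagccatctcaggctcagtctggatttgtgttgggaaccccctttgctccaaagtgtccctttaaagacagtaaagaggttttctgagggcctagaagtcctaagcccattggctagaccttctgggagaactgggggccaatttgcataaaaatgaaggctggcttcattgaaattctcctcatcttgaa
Acsl5: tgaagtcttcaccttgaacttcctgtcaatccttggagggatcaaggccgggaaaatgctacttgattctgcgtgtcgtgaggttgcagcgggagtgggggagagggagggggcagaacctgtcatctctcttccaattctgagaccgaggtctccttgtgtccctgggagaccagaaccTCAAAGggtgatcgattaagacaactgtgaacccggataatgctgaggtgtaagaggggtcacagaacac
The Acsl5 window holds the core once, as TCAAAG on the printed strand, starting 70 bases before the RefSeq start. The Acsbg1 window does not hold these letters. The direct repeat with 1 base between its copies (DR1), the sequence bound by PPAR receptors with RXR, was in 0 of the 12 entries and in 0.0335% of all windows. A match or its absence in these windows is a description of the letters and says nothing of binding.

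Acsl5 was the most abundant member in every library. Its enzyme activates long-chain fatty acids and sits at mitochondria and the endoplasmic reticulum. It had 53.5 and 55.2 FPKM in dKO_0 and dKO_1, against 52.7 in WT_0 and 45.0 in WT_1. The lowest dKO library was just above the highest WT library. The difference was 0.15 (SE 0.0931, log2 scale), and it was 0.04 without WT_1 and 0.27 without WT_0. Acsl5 (chromosome 19, 55251938 to 55297720, plus strand) is overlapped on the opposite strand by Zdhhc6, which had 16.2 and 17.7 FPKM in dKO libraries and 16.7 and 15.9 FPKM in WT libraries. The strand setting of the counting is not given in the sources used here, so reads of the overlap could count for either gene.

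Acsl4 encodes a synthetase that prefers arachidonic acid and other polyunsaturated fatty acids and is known for its part in ferroptosis. It was nearly level across the libraries, at 16.3 and 16.5 FPKM in dKO_0 and dKO_1 and at 15.9 and 16.9 FPKM in WT_0 and WT_1. The groups overlapped, with both dKO values inside the WT range, and the difference was 0.01 (SE 0.0659, log2 scale). Acsl4 lies on the X chromosome (142317993 to 142390535, minus strand), and all mice were male.

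Acsl1 and Acsl3 were expressed at low levels. Acsl1, the main synthetase of adipose tissue, heart and activated macrophages, had 4.26 and 4.31 FPKM in dKO_0 and dKO_1, against 4.72 and 4.60 in WT_0 and WT_1. The difference was small at -0.10 (SE 0.085, log2 scale), although the groups did not overlap. Acsl1 (chromosome 8, 46471037 to 46536051, plus strand) is overlapped by Gm45244 on the opposite strand. Acsl3, whose enzyme is linked to lipid droplet growth, had 1.84 and 2.07 FPKM in dKO_0 and dKO_1, against 2.64 and 2.74 in WT_0 and WT_1. Both dKO libraries were below both WT libraries, at a ratio of means of 0.726. The log2 difference was -0.32 (SE 0.112) with 1 added to each FPKM and -0.45 with 0.1 added, so the pseudocount shrank it. Acsl3 shares its locus (chromosome 1, 78657825 to 78707743, plus strand) with Utp14b on the same strand. Utp14b had 0.921 and 1.10 FPKM in dKO_0 and dKO_1, against 1.20 and 1.33 FPKM in WT_0 and WT_1, in the same order of libraries as Acsl3. How the authors' counting split reads between these genes is not given in the sources used here.

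Acsl6 (chromosome 11, 54303798 to 54364756, plus strand, with Gm12224 on the opposite strand), a synthetase gene of brain, was nearly absent. It was listed at 0 in dKO_0 and at 0.0157 FPKM in dKO_1, against 0.0206 in WT_0 and 0.0171 in WT_1. The values of dKO_1 and WT_0 relative to WT_1 were 0.922 and 1.208. The most common ratios of low rows to WT_1 in these libraries were 0.9221 and 1.208, so the values of these 3 libraries stood as equal, small read numbers would. No difference between the groups can be read at this depth.

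Each Acsl coding sequence was set beside the other member with the longest alignment to it. Acsl1 and Acsl6 were 68.3% identical over 1832 aligned bases, and Acsl3 and Acsl4 68.2% over 1869. The longest alignment of Acsl5 was with Acsl1, at 65.6% over 1755 bases. By the limits given for Acsbg1, no member of the Acsl family counts as a near-identical copy of another.

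FPKM are per length, so the synthetases can be set side by side. Their summed level was 113 and 117 FPKM in dKO_0 and dKO_1, against 97.9 and 92.5 FPKM in WT_0 and WT_1. Acsl5 made up 47.3% and 47.2% of it in dKO libraries, against 53.9% and 48.7% in WT libraries. Acsbg1 made up 32.8% and 33.2% in dKO libraries, against 22.4% and 25.1% in WT libraries. Acsl4 made up 14.5% and 14.1% in dKO libraries, against 16.2% and 18.2% in WT libraries. Shares of a sum are tied to each other, so a lower share need not be a lower level. Mean levels in dKO and WT were 16.4 and 16.4 FPKM for Acsl4, and 54.4 and 48.9 FPKM for Acsl5. Acsl1 made up 3.77% and 3.68% in dKO libraries, against 4.82% and 4.98% in WT libraries, and Acsl3 was below that in all 4. Acsbg1 was the second most abundant synthetase in every library, and its ratio to Acsl5 was 0.693 and 0.703 in dKO libraries, against 0.416 and 0.515 in WT libraries.

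**Figure D2:**
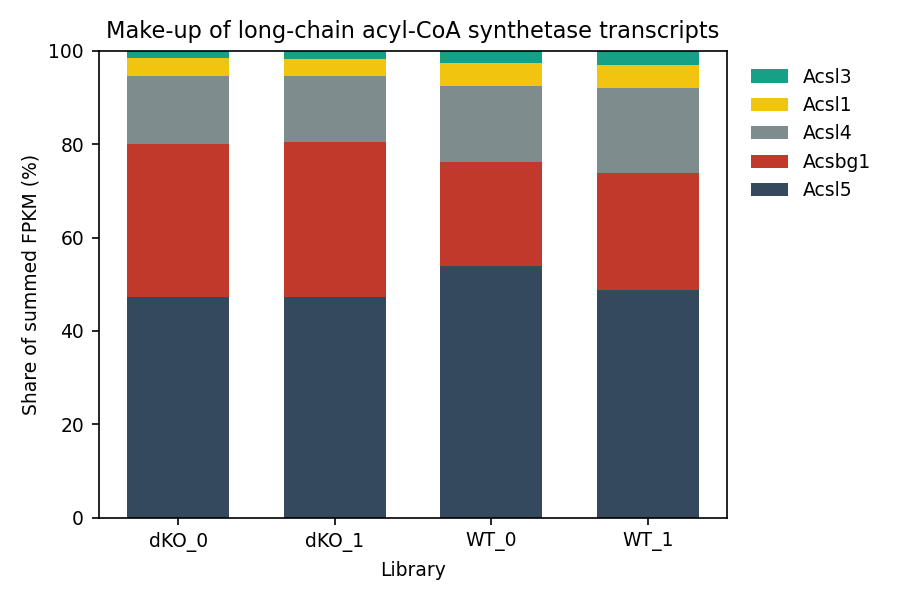
Share of each synthetase gene in their summed FPKM (vertical axis, percent) in each of the 4 libraries, without Acsl6, whose share was at most 0.0211%. The Acsbg1 segment is 32.8% and 33.2% in dKO libraries and 22.4% and 25.1% in WT libraries.

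The carnitine shuttle genes showed no gap between the groups. Cpt1a, the gene of the rate-setting step of mitochondrial fatty acid entry, had 22.1 and 23.3 FPKM in dKO_0 and dKO_1, against 17.2 in WT_0 and 25.2 in WT_1. Both dKO values lay between the WT values, which stood apart from each other by more than from either dKO library. The difference was 0.12 (SE 0.191, log2 scale), and it was 0.38 without WT_1 and -0.15 without WT_0. Of all rows tested, at any level, 91.9% had a smaller residual SD. Cpt2, the inner-membrane enzyme gene, had 6.21 and 6.40 FPKM in dKO_0 and dKO_1, against 7.19 and 6.25 in WT_0 and WT_1. The groups overlapped, with a difference of -0.08 (SE 0.0967, log2 scale), which became 0.01 without WT_0. The ratio of Cpt1a to Cpt2 was 3.56 and 3.65 in dKO libraries, against 2.39 and 4.04 in WT libraries. Neither gene (Cpt1a on chromosome 19, 3322334 to 3385733, plus strand, and Cpt2 on chromosome 4, 107903981 to 107923610, minus strand) is overlapped by another annotated gene.

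Fabp5 was the other member with a sizeable difference. Its protein binds long-chain fatty acids in the cytosol and is known in epidermis, macrophages and T cells. Fabp5 (chromosome 3, 10012548 to 10016607, plus strand) had 32.4 FPKM in both dKO libraries, against 23.2 in WT_0 and 18.0 in WT_1. Both dKO libraries stood above both WT libraries, and the WT libraries differed from each other. The means were 32.4 ± 0.00679 FPKM in dKO and 20.6 ± 3.70 FPKM in WT (SD, n = 2 each), a ratio of 1.57. The log2 difference was 0.64 (SE 0.132), and it was 0.46 without WT_1 and 0.82 without WT_0. Fabp5 was lowest in WT_1, as were Acsl5, all 28 cell cycle genes and all 9 tested B cell markers. The B cell sum was 134 FPKM in WT_0 and 130 FPKM in dKO_0, while Fabp5 was lower in WT_0 than in dKO_0. The part of the cell cycle and B cell values in the Fabp5 difference was not tested. The annotation holds 5 other genes with at least 90% identity over at least 50% of the Fabp5 coding sequence of 408 bases, all 5 of them pseudogenes and none with a row in the table. Reads that fit both Fabp5 and such a copy make its level uncertain.

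Cd36 (chromosome 5, 17781690 to 17888801, minus strand) was expressed at a low level. It had 2.78 and 2.04 FPKM in dKO_0 and dKO_1, against 2.89 and 3.43 in WT_0 and WT_1. Both dKO libraries were below both WT libraries, but dKO_0 was closer to WT_0 than to dKO_1. The log2 difference was -0.29 (SE 0.16), and it ran from -0.45 without dKO_0 to -0.13 without dKO_1. Macrophages, platelets and endothelial cells are known to carry Cd36. The macrophage marker Csf1r had 40.2 and 38.5 FPKM in dKO libraries, against 44.7 and 62.6 FPKM in WT libraries. Adgre1, the gene of F4/80, had 9.39 and 9.69 FPKM in dKO libraries, against 13.5 and 18.1 FPKM in WT libraries. Both were highest in WT_1, like Cd36. The 6 platelet markers summed to 7.54 and 5.87 FPKM in dKO libraries, against 6.72 and 9.77 FPKM in WT libraries. Pecam1, of endothelial cells, platelets and some leukocytes, had 36.5 and 32.5 FPKM in dKO_0 and dKO_1, against 38.2 and 45.7 FPKM in WT_0 and WT_1, the same order of libraries as Cd36. The endothelial gene Cdh5 was near 0, at 0.189 and 0.206 FPKM in dKO libraries and 0.193 and 0.192 FPKM in WT libraries. The part of these cells in the Cd36 value was not tested.

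**Figure D3:**
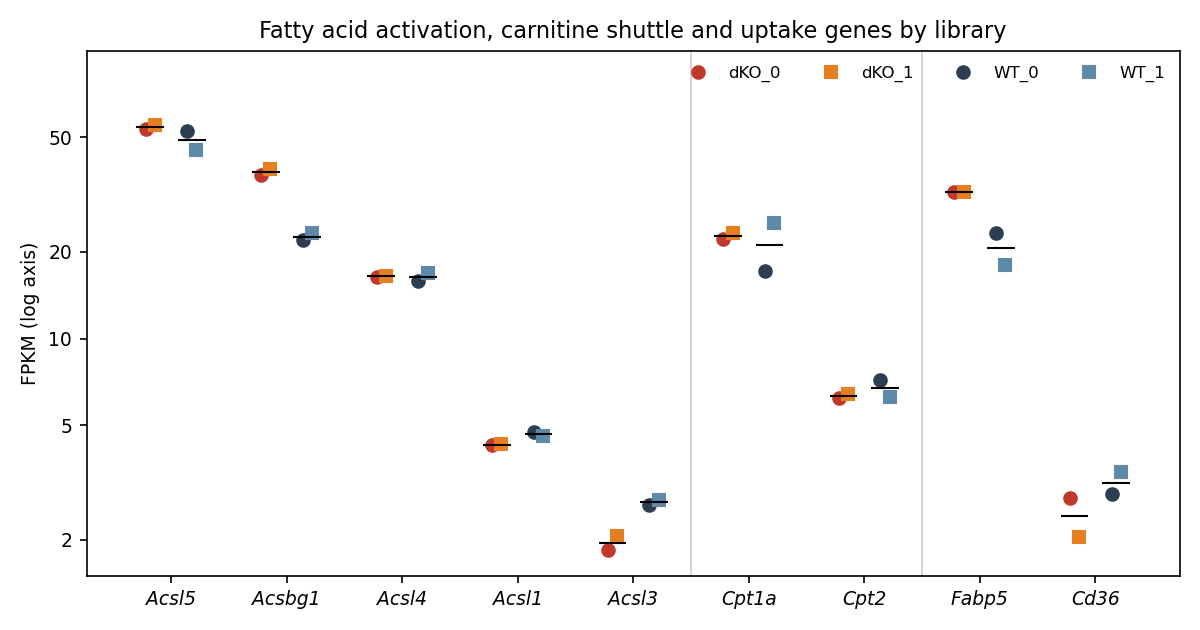
FPKM (log axis) of 9 members in the 4 libraries, in order synthetases, carnitine shuttle and uptake, with dKO left of WT, circles for libraries 0, squares for libraries 1 and black bars for group means; Acsl6 is left out because dKO_0 was at 0. The dKO points of Acsbg1 and Fabp5 sit above both WT points, while Cpt1a shows its widest gap between WT_0 (17.2) and WT_1 (25.2).

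In order of level within dKO, the members ran Acsl5, Acsbg1, Fabp5, Cpt1a, Acsl4, Cpt2, Acsl1, Cd36, Acsl3 and Acsl6, and only Cd36 and Acsl3 overlapped with their neighbour. In WT the order was Acsl5, Acsbg1, Cpt1a, Fabp5, Acsl4, Cpt2, Acsl1, Cd36, Acsl3 and Acsl6. There Acsbg1, Cpt1a and Fabp5 were not separated, since the libraries of each overlapped those of the next. The ratio of Fabp5 to Cd36 was 11.6 and 15.9 in dKO libraries, against 8.03 and 5.24 in WT libraries.

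Of the 9 filtered members, 3 had both dKO libraries above both WT libraries (Acsbg1, Fabp5 and Acsl5), where 27.8% of all rows tested did. Another 3 had both below (Acsl3, Cd36 and Acsl1), where 23.4% of all rows did, and 3 overlapped (Acsl4, Cpt1a and Cpt2). The limma fit over all rows called 0 of the 9 at an adjusted p under 0.05, where 0.345% of rows were called (0.181% as higher, 0.164% as lower). Before adjustment, 3 of the 9 had a p under 0.05, where 16.7% of rows passed: 2 were higher, where 9.64% of rows were, and 1 was lower, where 7.08% were. With small RNA rows left out of the fit, 1 of the 9 was called, Acsbg1, where 1.64% of rows were called (1.13% higher and 0.51% lower). The authors' deposited lists held 1 of the 10 as higher, where 1.56% of rows with a group mean of at least 1 FPKM were listed. The members were chosen on this contrast, so nothing is read from these counts. The median difference of the 9 was 0.0064, against 0.0122 for all rows tested.

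**Figure D4:**
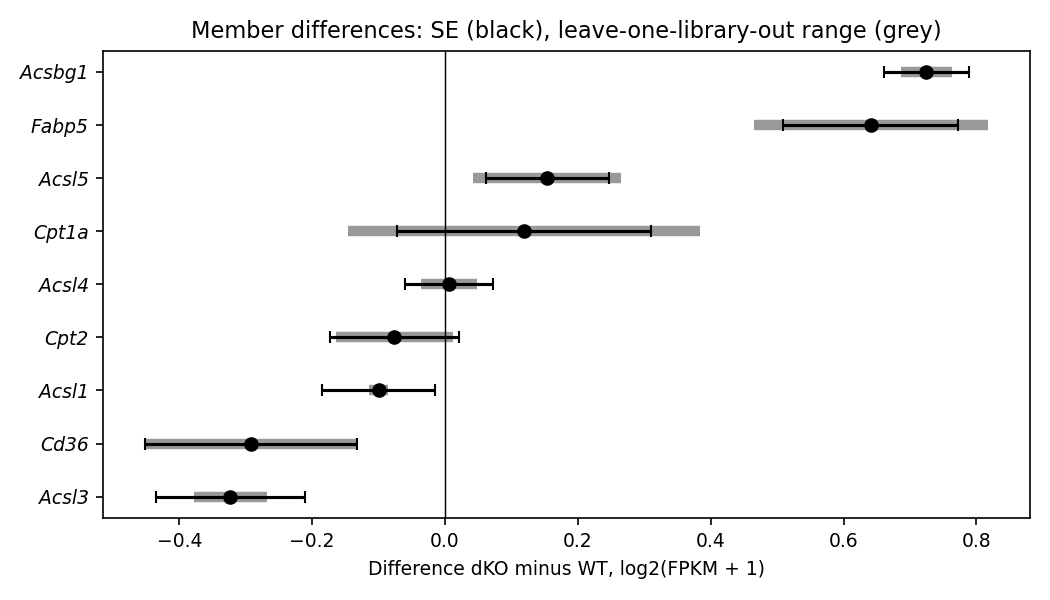
The horizontal axis gives dKO minus WT in log2(FPKM + 1) for 9 members, with the SE of the fit as black bars and the range over leaving out each single library as grey bars. The largest differences are those of Acsbg1 (0.72) and Fabp5 (0.64), and the most negative is that of Acsl3 (-0.32). The grey bars of Cpt1a, Acsl4 and Cpt2 cross 0, and those of the other members do not.

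The wider fatty acid pathway was then examined in 9 lists of 182 genes chosen for their role, all 182 of them in the table and 123 of them past the filter. The fit called 0 of the 123 over all rows (limma, adjusted p under 0.05), where 0.345% of all rows tested were called. At an unadjusted p under 0.05 there were 18 (9 higher and 9 lower), or 14.6% against 16.7% of all rows. Of all rows, 9.64% were higher and 7.08% lower at that threshold, and these shares also stand beside the counts of each list below. The authors' deposited lists held 0 of the 123 as higher and 3 as lower, where 1.24% of rows with a group mean of at least 1 FPKM were listed as lower. The median difference of the 123 was -0.01, against 0.0122 for all rows tested. Some list medians moved with single WT libraries. Without WT_0 and without WT_1 they were 0.14 and 0.03 for synthesis and elongation (0.09 with all libraries). For the rest of the carnitine shuttle they were 0.04 and 0.02 (0.06), and for mitochondrial beta-oxidation 0.05 and -0.02 (0.02). Genes of fat storage and release stayed negative, at -0.08 and -0.10 (-0.09). So did PPAR and lipid-sensing regulators, at -0.09 and -0.06 (-0.08). The medians were 0.08 and 0.05 for other synthetases (0.03) and 0.10 and 0.07 for thioesterases (-0.0024). They were 0.04 and -0.04 for other binding and uptake genes (0.00), and -0.08 and -0.05 for peroxisomal genes (-0.04). The filter was applied anew in each fit, so some medians cover different genes. Either fit tested 8 thioesterases, against 9 with all libraries. Without WT_1, 7 other synthetases were tested, against 8 with all libraries.

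Mitochondrial beta-oxidation genes, which cut acyl-CoA into acetyl-CoA, were close to level. Of 22 tested, 0 were called, 3 had an unadjusted p under 0.05 (2 higher, 1 lower), and the median difference was 0.02. Mlycd, whose enzyme removes the malonyl-CoA that inhibits Cpt1, had 12.6 and 12.8 FPKM in dKO libraries, against 9.93 and 8.86 in WT libraries (log2 difference 0.40, limma adjusted p = 0.16). Acadl, a long-chain acyl-CoA dehydrogenase gene, had 34.9 and 34.2 FPKM in dKO libraries, against 29.7 and 28.6 in WT libraries (limma adjusted p = 0.185). Acad9, which also helps build respiratory complex I, had 11.5 and 11.3 FPKM in dKO libraries, against 13.3 and 13.2 in WT libraries (limma adjusted p = 0.252). None of these 3 passed.

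The rest of the carnitine shuttle had 4 tested genes, 0 of them called and 0 at an unadjusted p under 0.05, with a median difference of 0.06. Slc22a5, the carnitine importer gene, had 8.30 and 7.17 FPKM in dKO libraries, against 9.34 and 9.05 in WT libraries (limma adjusted p = 0.336). Slc25a20, which swaps acylcarnitine across the inner membrane, and Crot, of the peroxisome, had log2 differences of 0.08 and 0.05. Peroxisomal beta-oxidation had 13 tested genes, 0 called and 0 at an unadjusted p under 0.05, with a median of -0.04. Abcd3, a peroxisomal fatty acid transporter gene, had a log2 difference of -0.34 and Phyh, of phytanic acid breakdown, 0.12 (limma adjusted p = 0.301 and 0.421).

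Other acyl-CoA synthetases had 8 tested genes, 0 called and 1 higher at an unadjusted p under 0.05, with a median difference of 0.03. Acsf2, a medium-chain synthetase gene, had 12.4 and 13.7 FPKM in dKO libraries, against 10.9 and 10.6 in WT libraries (log2 difference 0.26, limma adjusted p = 0.242). Acss2, which activates acetate, and Slc27a1, a fatty acid transport protein gene, had log2 differences of 0.19 and 0.30 (limma adjusted p = 0.388 and 0.394). Acyl-CoA thioesterases, which undo activation, had 9 tested genes, of which 4 had a higher and 5 a lower fitted level, with a median difference of -0.0024. Of these 0 were called, where 0.345% of all rows tested were, and 3 were higher at an unadjusted p under 0.05, where 9.64% of rows were. Acot7, a cytosolic thioesterase gene, had 75.9 and 75.3 FPKM in dKO libraries, against 54.4 and 47.1 in WT libraries (log2 difference 0.57, SE 0.0863, limma adjusted p = 0.121). Acot9, of mitochondria, had 30.4 and 29.9 FPKM in dKO libraries, against 22.4 and 23.2 in WT libraries (log2 difference 0.39, limma adjusted p = 0.119). Acot11 had a log2 difference of 0.30 (limma adjusted p = 0.269). Over the 9 genes, 4 had both dKO libraries above both WT libraries, where 27.8% of all rows did, and 3 had both below, where 23.4% did. With small RNA rows left out, Acot7 had a limma adjusted p = 0.0421, and across the settings fitted for single genes (all but the replicate block with crossed library numbers) its limma adjusted p ran between 0.0358 and 0.575.

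Fatty acid synthesis, elongation and desaturation had 14 tested genes, 0 called and 2 with an unadjusted p under 0.05, both lower, with a median difference of 0.09. Hacd3, a dehydratase gene of chain elongation, had 39.5 and 35.7 FPKM in dKO libraries, against 54.1 and 50.5 in WT libraries (log2 difference -0.47, SE 0.0788, limma adjusted p = 0.128). Elovl5, an elongase gene for polyunsaturated chains, and Fads1, a desaturase gene, had log2 differences of -0.18 and 0.22 (limma adjusted p = 0.245 and 0.301).

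Genes of fat storage and release had a median difference of -0.09, with 6 higher and 14 lower fitted levels. Of 20 tested, 0 were called, and 4 had an unadjusted p under 0.05 (1 higher, 3 lower). Lipa, the lysosomal acid lipase gene that frees fatty acids from lipoprotein lipids, had 21.9 and 23.6 FPKM in dKO libraries, against 35.5 and 33.3 in WT libraries (log2 difference -0.58, SE 0.0709, limma adjusted p = 0.0915). Plin2, a lipid droplet coat gene, had 11.1 and 12.3 FPKM in dKO libraries, against 18.0 and 17.0 in WT libraries (log2 difference -0.55, SE 0.0817, limma adjusted p = 0.119). Dgat2, of triglyceride synthesis, had 1.91 and 1.16 FPKM in dKO libraries, against 3.78 and 2.97 in WT libraries (log2 difference -0.80, limma adjusted p = 0.195). With small RNA rows left out, Lipa had a limma adjusted p = 0.0338 (between 0.0338 and 0.506 across the same settings) and Plin2 0.0488 (between 0.0488 and 0.523). Among PPAR and other lipid-sensing regulators, 19 were tested, 0 were called, and 3 had an unadjusted p under 0.05 (1 higher, 2 lower). Their median difference was -0.08, with 6 higher and 13 lower fitted levels. Pparg, of the nuclear receptor that drives lipid uptake genes, had 2.32 and 2.22 FPKM in dKO libraries, against 3.50 and 3.84 in WT libraries (log2 difference -0.51, limma adjusted p = 0.158). Rxra, of its partner receptor, and Nrip1, of a corepressor, had log2 differences of 0.27 and -0.29 (limma adjusted p = 0.206 and 0.215). Macrophages are known to express Lipa, Plin2 and Pparg, and the macrophage markers given above were lower in both dKO libraries as a sum. That sum was higher in WT_1 than in WT_0, as was Pparg, while Lipa and Plin2 were higher in WT_0 than in WT_1. The part of macrophages in these values was not tested.

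**Figure D5:**
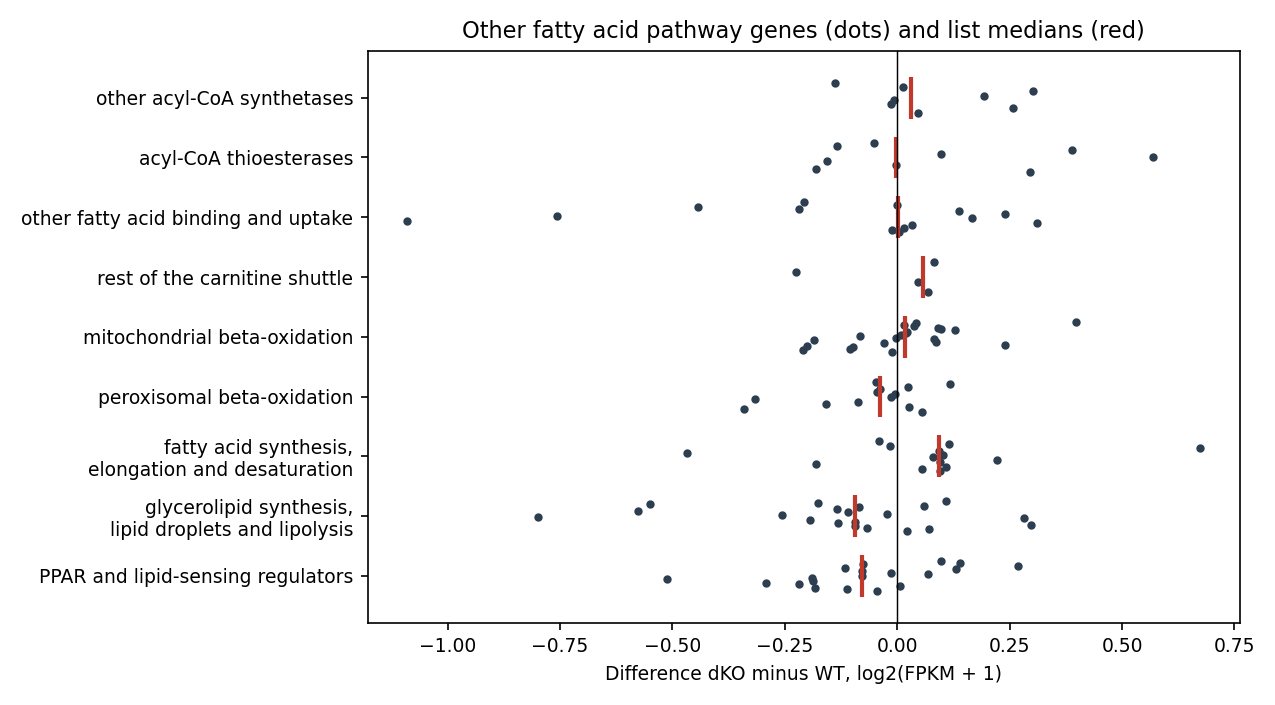
The horizontal axis gives dKO minus WT in log2(FPKM + 1) for the 123 tested genes of the 9 lists (rows), with a dot per gene and a red bar at each list's median. The medians lie between -0.09 and 0.09, and the dots farthest to the left are Fabp2 and then Dgat2 and Fabp6.

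Other fatty acid binding and uptake genes had 14 tested members, 0 called and 2 with an unadjusted p under 0.05 (1 higher, 1 lower), with a median difference of 0.00. Got2, whose product has also been described as a plasma membrane fatty acid binding protein, had 68.9 and 69.1 FPKM in dKO libraries, against 61.9 and 54.8 in WT libraries (limma adjusted p = 0.261). Lrp1, a lipoprotein receptor gene, had 6.58 and 7.08 FPKM in dKO libraries, against 8.43 and 11.0 in WT libraries (log2 difference -0.44, limma adjusted p = 0.255). Dbi, of the acyl-CoA binding protein, had a log2 difference of 0.31 (limma adjusted p = 0.359). The remaining relatives of Fabp5 were picked out after their values were seen. Fabp4, of adipocytes and macrophages, had 3.46 and 2.81 FPKM in dKO libraries, against 2.34 and 3.04 in WT libraries. Fabp2 and Fabp6, known from intestine, are among the authors' deposited lower genes. Fabp2 had 9.36 and 8.88 FPKM in dKO_0 and dKO_1, against 41.8 in WT_0 and 9.85 in WT_1. Fabp6 had 75.1 and 39.8 FPKM in dKO_0 and dKO_1, against 187 in WT_0 and 46.2 in WT_1. For both genes WT_0 stood apart and WT_1 was near the dKO libraries. Without WT_0 the log2 difference of Fabp2 was -0.10 and that of Fabp6 0.24, against -1.09 and -0.76 with all libraries (limma adjusted p = 0.477 and 0.647). Without WT_1 the log2 difference of Fabp2 was -2.08 with a limma adjusted p = 0.00296, and across the same settings that p ran between 0.00296 and 0.877. Of the 8 neutrophil markers, 5 were also highest in WT_0, with S100a8, S100a9 and Ngp making up most of the sum of 353 FPKM. The others were not, as Csf3r was highest in WT_1, and Cxcr2 and Retnlg were highest in dKO_1. Retnlg had 1.18 and 2.02 FPKM in dKO_0 and dKO_1, against 0.723 and 0.598 FPKM in WT_0 and WT_1. All 5 tested erythroid markers were highest in WT_0 too, and the list summed to 19.7 and 52.5 FPKM in dKO_0 and dKO_1, against 76.1 and 8.55 FPKM in WT_0 and WT_1. The part of these cells was not tested.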

How the data were processed

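Per the submitters' processing notes, reads were handled with FastQC, TopHat2 2.1.0 and Cuffdiff 2.2.1 on mm10. Which annotation, read length and strand setting were used is not stated in the sources used here. The deposited table holds FPKM for each of 4 libraries and the authors' group means. The deposited log2 fold changes, p-values and q-values are the authors' own, and of these only membership of their lists of higher and lower genes was used. Columns end in 0 and 1 while titles count from 1, so each column was tied to its group only.

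FPKM are not counts, so log2(FPKM + 1) was fitted with limma 3.58.1 in R 4.3.3 (two-sided, intensity trend, unpaired, Benjamini-Hochberg over 11595 rows at 1 FPKM or more in 2 or more libraries). The fit had 2 residual and 2.31 prior degrees of freedom. On simulated data, with row spreads shuffled, only the mean estimated difference was checked against the set one, not the calls or p-values. With no label naming separate animals, p-values reflect only how far these libraries differ, possibly for technical reasons. Depth was estimated from the FPKM that 1 read is worth in low rows. Coding sequences were compared with blastn 2.17.0 on GENCODE M21, which is on GRCm38, as mm10 is. The members and lists were chosen with earlier results of these data known. Of each pathway list, called genes and those with the lowest p were named, to 3 per list, and Fabp2, Fabp4 and Fabp6 were named after their values were seen. Of the genes chosen by lowest p, 1 is not reported here. Alternatives were another pseudocount, filters, scalings, no trend, small RNA rows left out, replicate blocks and each library left out.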

Additional observations from a re-analysis of the deposited data

How the results depend on the processing

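The limma fit called 21 rows higher and 19 lower in dKO. With no filter it called 3 and 0, with small RNA rows left out 128 and 58, with the column number as a replicate block 5 and 2, and with the numbers crossed, an alternative chosen after seeing the data, 14 and 8. Leaving out each library in turn gave 0 to 134 higher and 2 to 86 lower, with the fewest without dKO_0 or dKO_1. The column numbers share only a number (correlation of their deviations -0.11). Leave-out fits have 1 library in a group, whose spread is assumed to be like that of the other. Of the fatty acid lists, thioesterases had 1 called gene and glycerolipid genes 2 with small RNA rows left out, and leaving out a library gave 0 to 1 called thioesterases and 0 to 1 called binding and uptake genes. With the replicate block, 0 list members were called. Over the leave-out fits the log2 difference ran from -0.016 to 0.18 for Slc25a20, from -0.0084 to 0.10 for Crot and from -1.75 without WT_1 to 0.24 without WT_0 for Fabp6. Acsbg1, Fabp5, Acsl5, Acsl1, Acsl3 and Cd36 kept their sign in every one of these fits that included them, and the sign of Acsl4, Cpt1a and Cpt2 depended on the library left out; that of Acsl4 also changed with quantile normalization or median centring. Acsl1, Acsl3 and Cd36 fell below the filter on a mean FPKM of at least 5. The causes of these changes were not tested. What size of difference 2 libraries a group can detect was not measured for the members.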
